A study of Mus musculus with 9 samples.

Results

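The genes described here are 32 genes of glycolysis and of the response to low oxygen, read in the injured mouse lung. They run from the glucose transporters through the glycolytic enzymes to lactate export, followed by the oxygen sensor genes and further targets of hypoxia-inducible factor (HIF). Each was matched by its symbol among the 52381 genes of the deposited table, and all 32 were found. Aldoa was the only symbol listed more than once, and its row with the higher mean was used. The other Aldoa row had at most 0.35 FPKM (fragments per kilobase of gene and per unit of mapped fragments, a level corrected for gene length and sequencing depth).

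The libraries are RNA sequencing of whole lung from 9 mice, all with acute lung injury (ALI) set off by lipopolysaccharide (LPS), a component of the outer membrane of Gram-negative bacteria. In 4 mice LPS was the only agent named, and this group is called LPS-ALI, or LPS alone. The other 5 mice, called TMAO, had the same injury and were treated with trimethylamine N-oxide (TMAO), a metabolite derived from gut bacterial products. The sources used here do not give strain, sex, age, doses or times, and uninjured lungs are not analysed here. The comparison sets TMAO treatment against injury without it.

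Glycolysis splits glucose into pyruvate in the cytosol and yields ATP without oxygen. Activated neutrophils and macrophages lean on it heavily. When oxygen is scarce, or when LPS activates the NF-kB pathway, the transcription factor subunit encoded by Hif1a accumulates and binds a short DNA core in the promoters of glycolytic genes. Prolyl hydroxylases encoded by the Egln genes mark the HIF alpha subunits for destruction when oxygen is present. In lung the related subunit encoded by Epas1 is abundant in endothelium.

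The promoters of 5 of these genes are shown as examples, each as the 250 bases before a RefSeq start of the gene. They are written 5′ to 3′ on the strand of the gene, from RefSeq on GRCm38.p6. The choice is no test of cores against the side on which a gene lay. Capitals mark ACGTG or GCGTG on either strand (CACGT or CACGC on the strand shown), the core of the HIF binding element. Hif1a, Hk2, Pgk1 and Ldha lay on the lower side in TMAO lungs and Mxi1 on the higher side. Eno1, also on the lower side, is not shown and held GCGTG but no ACGTG. Hif1a, Hk2 and Pgk1 have 1 such start in the table. Ldha has 2, of which the first is shown, and Mxi1 has 3, of which the first 2 are shown.
Hif1a, chr12:73907617-73907866 (+ strand): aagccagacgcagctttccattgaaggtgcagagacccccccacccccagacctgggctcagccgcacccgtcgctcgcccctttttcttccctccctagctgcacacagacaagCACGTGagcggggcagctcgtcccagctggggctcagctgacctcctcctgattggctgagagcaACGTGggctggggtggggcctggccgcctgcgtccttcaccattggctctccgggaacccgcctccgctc
Hk2, chr6:82774455-82774704 (- strand): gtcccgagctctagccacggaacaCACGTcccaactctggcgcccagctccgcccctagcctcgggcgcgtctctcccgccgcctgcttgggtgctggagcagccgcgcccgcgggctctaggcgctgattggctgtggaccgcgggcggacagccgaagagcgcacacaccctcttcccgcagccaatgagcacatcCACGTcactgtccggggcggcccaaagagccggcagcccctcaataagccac
Pgk1, chrX:106186850-106187099 (+ strand): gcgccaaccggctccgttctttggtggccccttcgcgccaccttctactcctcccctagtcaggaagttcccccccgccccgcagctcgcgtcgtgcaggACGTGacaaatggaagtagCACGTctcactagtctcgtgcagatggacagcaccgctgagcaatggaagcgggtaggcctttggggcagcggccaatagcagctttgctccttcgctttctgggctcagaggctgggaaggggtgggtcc
Ldha, chr7:46845554-46845803 (+ strand): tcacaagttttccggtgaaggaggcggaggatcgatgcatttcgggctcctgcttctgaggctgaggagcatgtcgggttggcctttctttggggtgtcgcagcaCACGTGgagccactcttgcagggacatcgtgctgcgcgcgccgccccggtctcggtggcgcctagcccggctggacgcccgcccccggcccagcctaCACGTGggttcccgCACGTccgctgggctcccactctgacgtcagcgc
Mxi1 first start, chr19:53310256-53310505 (+ strand): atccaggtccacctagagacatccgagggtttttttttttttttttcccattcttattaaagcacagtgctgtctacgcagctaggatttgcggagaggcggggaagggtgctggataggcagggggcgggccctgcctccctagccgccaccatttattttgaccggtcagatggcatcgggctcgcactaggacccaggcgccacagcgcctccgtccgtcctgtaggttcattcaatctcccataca
Mxi1 second start, chr19:53329163-53329412 (+ strand): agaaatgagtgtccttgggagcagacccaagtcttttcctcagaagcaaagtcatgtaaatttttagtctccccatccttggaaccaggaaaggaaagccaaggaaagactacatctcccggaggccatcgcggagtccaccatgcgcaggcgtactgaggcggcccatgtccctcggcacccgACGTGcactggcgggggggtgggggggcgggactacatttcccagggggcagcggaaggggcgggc
Ldha held 5 cores in this stretch, at -145, -144, -48, -47 and -34 from that start. Those at -145 and -144, and at -48 and -47, are the same CACGTG read on each strand, a word that is also the E-box bound by Myc and Max proteins. Hif1a held 3 cores, at -135, -134 and -70, the first 2 of them again a CACGTG. Hk2 held 2 at -226 and -52, and Pgk1 held 2 at -150 and -131. The first Mxi1 start, which is the one nearest the annotated start of the gene, held 0 cores. The second Mxi1 start, downstream within the gene, held 1 at -66, and the third, not shown, held 1 at -25. The starts shown for Hif1a and Ldha also lie downstream within their annotated genes, which begin at 73901375 and 46841475. Those of Hk2 and Pgk1 lie at the annotated start.

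Promoter windows of 300 bases, 250 before and 50 after the gene start, were found for 30 of the 32 genes, with 45 windows in all because some genes have several starts. Slc2a3 and Ndrg1 had no window. Of the 45 windows 37 held ACGTG or GCGTG, which is 82.2%, against 43.8% of all 32851 windows of that length. ACGTG alone was in 57.8% of the windows of these genes and in 19.6% of all windows, and GCGTG in 53.3% and 32.4%. Counted by gene, 28 of 30 (93.3%) had a core in at least 1 window, against 67.6% of the 9087 tested genes with a window. Gpi1, of the second glycolytic step, and Tpi1, of the triose step, had none. Some windows of the same gene overlap, as in Aldoa, Eno1 and Pfkm, so a core can count in more than 1 window. The genes were listed for glycolysis and the response to low oxygen, so their higher share tests nothing about TMAO. These matches describe the letters only.

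A gene was tested where it had at least 1 FPKM in at least 4 libraries, which held for 30 of the 32 genes and for 11817 of all genes. Aldoc and Egln3 missed that floor. Differences are on the log2(FPKM + 1) scale, TMAO minus LPS-ALI, and were tested with limma. The median tested gene was itself shifted by -0.17 in TMAO lungs. That shift was 0.05 without TMAO replicate 5, whose median tested gene was at 1.74, against 2.74 to 3.35 in the other libraries. Each difference is given relative to the median gene, followed where useful by the unshifted value. The SE and the limma p belong to the unshifted difference, and so take in level shifts of whole libraries. Of the 30 genes 23 lay below the median gene, where by construction 50% of all tested genes do, and their median relative difference was -0.35. The middle 50% of all tested genes ran from -0.20 to 0.20. No gene of the 30 passed an adjusted p of 0.05 (limma adjusted p = 0.998 for each). Among all 11817 genes 0 passed (0.0%), while at an unadjusted limma p under 0.05 there were 346 lower (2.93%) and 50 higher (0.423%). Of the 30 genes 6 were lower at that level, namely Hk2, Gapdh, Slc16a1, Slc16a3, Hif1a and Ndrg1, and 0 were higher. Without LPS-ALI replicate 4 this count was 1, against 1.83% of all genes. LPS-ALI replicates 3 and 4 carry library codes that begin with X, a letter that the sources used here do not explain and which no TMAO library has. Without these X-coded libraries the count was 0, against 1.26%, and the median relative difference was -0.23, with 25 of 30 genes below the median gene. Without TMAO replicate 5 there were 5 lower, against 345 of all genes (2.94%), and 1 higher, against 504 (4.30%). The excess of lower over higher genes among all genes was thus not seen without that library. For 18 of the 30 genes leaving out 1 lung turned the relative difference or moved it by over 1.5 times.

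The scaling of the libraries moved the balance of all genes. Median-of-ratios scaling, which brought the shift of the median gene to -0.01, gave 434 lower (3.75%) and 358 higher genes (3.09%) at an unadjusted limma p under 0.05, and quantile normalization gave 450 (3.81%) and 441 (3.73%). Under either, 8 of the 30 genes were lower and 2 higher, and 23 of 30 lay below the median gene. Under either, 6 of the 30 genes had every TMAO lung below every LPS-ALI lung (1.69% and 1.6% of all tested genes) and 1 had every TMAO lung above (1.66% and 1.85%), against 2 and 0 in FPKM as deposited.

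Several libraries stood apart, and the values below are given with and without them where they matter. TMAO replicate 5 had a relative depth of 0.38 of the deepest library, against 0.495 to 1 in the others. Mitochondrial genes held 52.2% of its FPKM, against 33.4% to 49.3% in the others. Genes with at least 1 FPKM numbered 8846 in it, against 11158 or more in every other library. It had the lowest value of all 9 libraries for 26 of the 32 genes. LPS-ALI replicate 4 had the highest value for 12 of the 32 genes and the lowest for 3. Its red blood cell markers summed to 2327 FPKM, against 124 to 291 in the other 8 libraries, and its alveolar type 2 markers to 1313 FPKM, against 4965 to 14910. As a list, ciliated cell markers set both X-coded libraries apart. Relative to the median gene their mean level was 1.34 and 1.66 in LPS-ALI replicates 3 and 4, against -0.05 and -0.0017 in replicates 1 and 2 and -0.55 to 0.80 in TMAO lungs, and none of the 8 was at 0 in every library. Foxj1, the regulator that defines ciliated cells, had 5.04 and 21.3 FPKM in the X-coded libraries and 0.30 to 1.96 in the other 7. Tppp3 of the same list did not set them apart, at 39.97 and 94.71 FPKM against 32.31 to 99.16. All 6 tested ciliated markers lay below the median gene, 5 of them at an unadjusted limma p under 0.05, with a median relative difference of -0.93, or -0.07 without the X-coded libraries. Platelet markers summed to 34.5 to 79.8 FPKM with LPS alone and 19.2 to 30.4 with TMAO, and T and NK cell markers to 24.97 to 59.73 and 9.67 to 18.8. Neither sum overlapped between the groups in FPKM as deposited. Most of each platelet sum was Pf4, and most of each T and NK cell sum was Gzma. Pf4 itself overlapped, at 22.2 to 54.2 FPKM with LPS alone and 12.6 to 24.2 with TMAO. Gzma had 18.07 to 39.45 and 6.92 to 12.99 FPKM. Relative to the median gene of the library the mean levels of both lists did overlap. They were -0.19 to 0.52 and -0.88 to -0.011 for platelet markers, and -1.27 to -0.0079 and -1.65 to -0.25 for T and NK cell markers. Of 4 tested platelet markers 4 lay below the median gene (median -0.69), as did 3 of 4 T and NK cell markers (median -0.66). The part of these library and marker differences in the results was not tested. Whole lung mixes many cell types, so fewer cells of a type and less RNA per cell cannot be told apart.

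**Figure D1:**
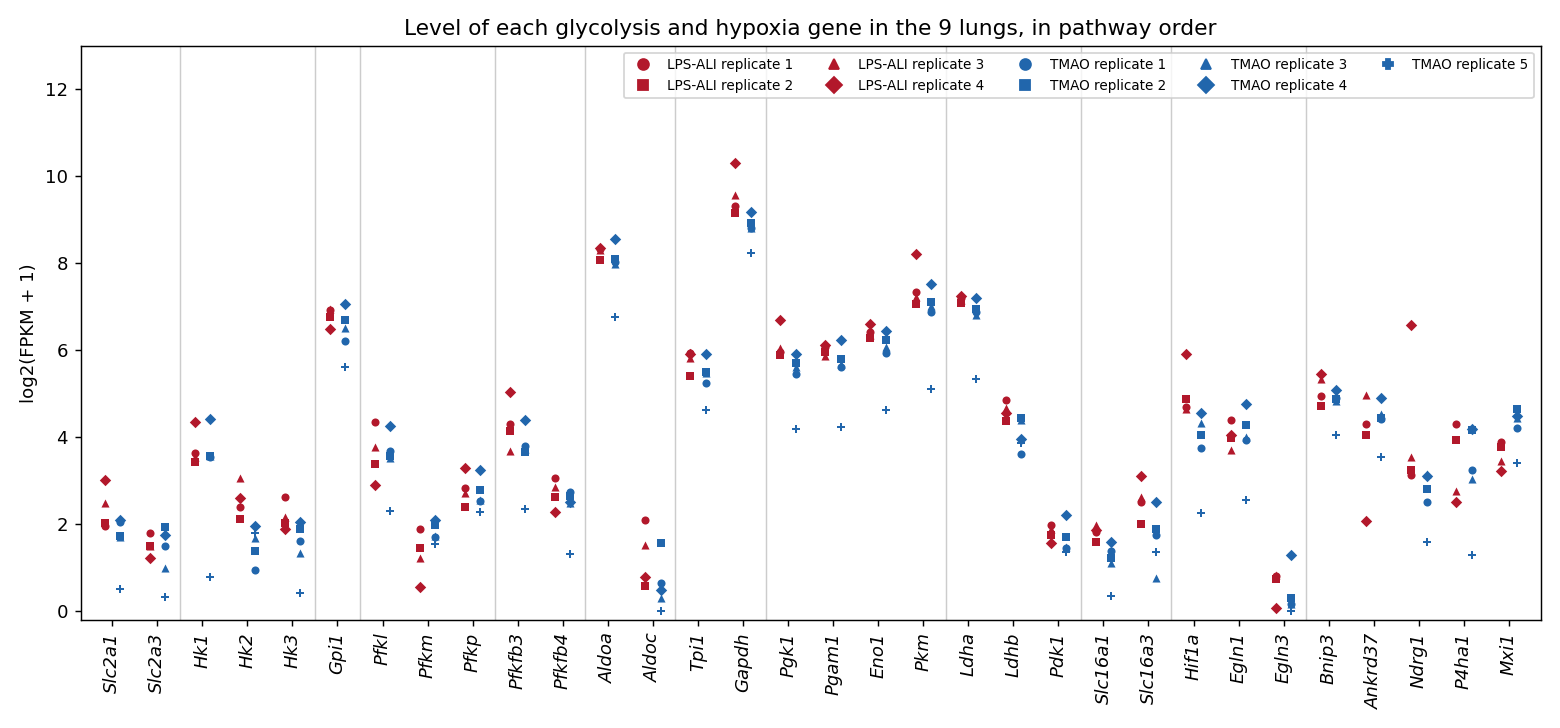
Level of each of the 32 genes on a log2(FPKM + 1) axis, in pathway order with vertical lines between steps, 1 point per lung (red LPS-ALI, blue TMAO, marker shape for the mouse number). Gapdh and Aldoa are the most abundant genes, and the plus sign of TMAO replicate 5 is the lowest point for 26 of the 32 genes.

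Glucose enters the cell through transporters of the Slc2a family. Slc2a1, the widely expressed GLUT1 gene, had 2.87, 3.08, 4.59 and 7.13 FPKM in LPS-ALI replicates 1 to 4 and 3.10, 2.32, 2.23, 3.24 and 0.42 in TMAO replicates 1 to 5. The groups overlapped, and the high values were those of LPS-ALI replicates 3 and 4. The relative difference of Slc2a1 was -0.59, and -0.16 without these libraries. Slc2a3, the high-affinity GLUT3 gene of neutrophils and neurons, had 1.34 to 2.44 FPKM with LPS alone and 0.25 to 2.84 with TMAO, with a relative difference of -0.03. Neutrophil markers summed to 7638 to 20700 FPKM with LPS alone and 7720 to 14770 with TMAO, and none of the 10 was at 0 in every library. S100a8 and S100a9 made up most of each sum, so the sum says little of the other markers. By gene, 6 of the 10 lay below the median gene and 4 above. Their median relative difference was -0.14, and -0.30 without the X-coded libraries.

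The hexokinases trap glucose in the cell by phosphorylating it. Hk2, the inducible hexokinase, had 4.28, 3.36, 7.34 and 5.03 FPKM with LPS alone and 0.91, 1.62, 2.18, 2.87 and 2.47 with TMAO. Every TMAO lung lay below every LPS-ALI lung, which held in FPKM for 2 of the 30 genes, the other being Hif1a, and for 1.36% of all tested genes. The reverse held for 0 of the 30 and for 0.118% of all. The means were 5.00 ± 1.70 (SD, n = 4) and 2.01 ± 0.77 (SD, n = 5), a relative log2 difference of -0.83 (unshifted -0.996 ± 0.34 SE), and -0.50 relative to the median gene without the X-coded libraries. TMAO replicate 5, low in most genes, was not low in Hk2, and once each library was set against its own median tested gene Hk2 overlapped between the groups. Hk3, the hexokinase of myeloid cells, had 5.13, 3.07, 3.46 and 2.71 FPKM with LPS alone and 2.07, 2.71, 1.53, 3.12 and 0.33 with TMAO. Its FPKM overlapped, while its level relative to the median gene of the library did not, at -1.09 to -0.42 with LPS alone and -1.51 to -1.13 with TMAO. Hk3 had a relative difference of -0.54, and -0.64 without the X-coded libraries. Hk1, the constitutive hexokinase, was the most abundant of the family in every library but TMAO replicate 5, with 9.83 to 19.5 FPKM with LPS alone and 0.72 to 20.3 with TMAO. Its relative difference of -0.40 rested on TMAO replicate 5, which alone had 0.72 FPKM, and was -0.03 without it.

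Phosphoglucose isomerase, encoded by Gpi1, turns glucose 6-phosphate into fructose 6-phosphate. Gpi1 had 88.02 to 122.47 FPKM with LPS alone and 48.1 to 133 with TMAO. Its relative difference of -0.19 became -0.0696 without LPS-ALI replicate 3 and -0.33 without LPS-ALI replicate 4. The next step, phosphofructokinase, commits sugar to glycolysis, and it was the enzyme step at which all 3 genes tested lay above the median gene. Pfkl, the liver-type subunit, had 6.42 to 19.3 FPKM with LPS alone and 3.92 to 18.1 with TMAO, with a relative difference of 0.04 that turned to -0.18 without the X-coded libraries. Pfkp, the platelet-type subunit, had 4.28 to 8.78 and 3.84 to 8.51 FPKM and a relative difference of 0.04, which turned to -0.08 without TMAO replicate 5. Pfkm, the muscle-type subunit, had 2.67, 1.72, 1.33 and 0.47 FPKM with LPS alone and 2.24, 2.92, 2.29, 3.24 and 1.93 with TMAO. The low values were those of the X-coded LPS-ALI libraries, and the groups overlapped. The relative difference of Pfkm was 0.70 (unshifted 0.53 ± 0.32 SE) and 0.36 without these libraries. Striated and heart muscle markers summed to 8.06 to 51.8 FPKM with LPS alone and 13.2 to 82.8 with TMAO.

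Phosphofructokinase is switched on by fructose 2,6-bisphosphate, which the PFKFB enzymes make and remove. Pfkfb3, whose product strongly favours synthesis and which LPS and hypoxia induce, had 18.8, 16.6, 11.8 and 31.6 FPKM with LPS alone and 12.9, 11.7, 12.2, 20.1 and 4.06 with TMAO. The groups overlapped, and the relative difference was -0.53, or -0.32 without LPS-ALI replicate 4, the high library. Pfkfb4 had 3.82 to 7.38 and 1.47 to 5.67 FPKM, with a relative difference of -0.20 that ran from -0.38 without LPS-ALI replicate 4 to -0.0807 without LPS-ALI replicate 3.

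Aldolase and triosephosphate isomerase split and interconvert the sugar phosphates. Aldoa, the main aldolase outside liver and brain, had 268 to 327 FPKM with LPS alone and 107 to 379 with TMAO, with a relative difference of -0.21. Aldoc, the brain-type aldolase, had 3.25, 0.49, 1.87 and 0.73 FPKM with LPS alone and 0.56, 1.96, 0.22, 0.39 and 0 with TMAO, too low to be tested. Tpi1 had 41.5 to 60.0 and 23.5 to 59.2 FPKM, with a relative difference of -0.24.

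The steps from glyceraldehyde 3-phosphate to pyruvate return ATP, and each of their 5 genes lay below the median gene, also without the X-coded libraries. Gapdh, often used as a reference gene, was the most abundant of the 32 genes and had 635, 566, 755 and 1268 FPKM with LPS alone and 449, 482, 447, 581 and 300 with TMAO. Only TMAO replicate 4 reached into the LPS-ALI range, and the high value was that of LPS-ALI replicate 4. The relative difference of Gapdh was -0.62 (unshifted -0.79 ± 0.30 SE), -0.42 without LPS-ALI replicate 4 and -0.22 without both X-coded libraries. Pgk1, for the first ATP-yielding kinase, had 60.8, 58.0, 65.5 and 102 FPKM with LPS alone and 42.5, 51.6, 47.6, 59.2 and 17.1 with TMAO. Its groups met at 58.0 and 59.2, and its relative difference was -0.60, or -0.33 without the X-coded libraries. Relative to the median gene of the library Pgk1 did not overlap, at 2.91 to 3.71 with LPS alone and 2.44 to 2.75 with TMAO.

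Pgam1, the mutase of the next step, had 57.7 to 68.9 FPKM with LPS alone and 17.8 to 74.8 with TMAO, with a relative difference of -0.33. Eno1, the ubiquitous enolase, had 76.4 to 96.7 and 23.8 to 86.6 FPKM and a relative difference of -0.38. Neither gene overlapped relative to the median gene of the library, where Pgam1 was at 3.03 to 3.15 and 2.49 to 2.90 and Eno1 at 3.38 to 3.64 and 2.89 to 3.23. The near-identical retrogene copy of Eno1, Eno1b, had at most 0.56 FPKM. Pkm, the pyruvate kinase gene of most tissues, had 160, 132, 150 and 297 FPKM with LPS alone and 117, 136, 129, 184 and 33.4 with TMAO. For Pkm the relative difference was -0.56, and -0.25 without the X-coded libraries. Processed copies of several glycolytic genes lie elsewhere in the mouse genome, and whether the authors' counting shared reads among them could not be checked.

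Lactate dehydrogenase turns pyruvate into lactate and restores the NAD+ that Gapdh consumes. Ldha, its hypoxia-induced subunit, had 145, 134, 142 and 152 FPKM with LPS alone and 116, 123, 111, 146 and 39.7 with TMAO. The LPS-ALI lungs were close together at 143 ± 7.47 (SD, n = 4), and of the TMAO lungs only replicate 4 reached into their range. The relative difference of Ldha was -0.37, and relative to the median gene of the library the groups did not overlap, at 4.15 to 4.39 and 3.61 to 4.12. Ldhb, the subunit that favours lactate oxidation, had 27.8, 19.6, 24.4 and 22.7 FPKM with LPS alone and 11.2, 20.6, 20.1, 14.5 and 13.6 with TMAO. Its relative difference was -0.39, and -0.23 without TMAO replicate 4. Pdk1, a kinase that shuts pyruvate dehydrogenase and so keeps pyruvate out of mitochondria, had 1.97 to 2.94 and 1.58 to 3.62 FPKM. Its relative difference was 0.02, and -0.13 without TMAO replicate 5.

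Lactate leaves the cell through monocarboxylate transporters. Slc16a3, the hypoxia-induced exporter MCT4, had 4.72, 2.99, 5.14 and 7.61 FPKM with LPS alone and 2.36, 2.71, 0.69, 4.64 and 1.55 with TMAO. In 4 of 5 TMAO lungs it was below every LPS-ALI lung, and the relative difference was -0.74 (unshifted -0.91 ± 0.39 SE), or -0.39 without the X-coded libraries. Slc16a1, the transporter MCT1 that carries lactate either way, had 2.54, 2.00, 2.91 and 2.66 FPKM with LPS alone and 1.61, 1.32, 1.16, 2.00 and 0.26 with TMAO. The groups touched at 2.00, and the relative difference was -0.52. Relative to the median gene of the library Slc16a1 did not overlap, at -1.29 to -0.80 and -1.81 to -1.36.

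Across the pathway, from uptake to lactate export, 19 of the 23 tested genes lay below the median gene and 4 above it, the 3 phosphofructokinase genes and Pdk1. Without the X-coded libraries 21 of 23 lay below it, Pfkm and Pfkp being the exceptions. Set against the median gene of their own library, 7 of the 30 genes had every TMAO lung below every LPS-ALI lung, namely Hk3, Pgk1, Pgam1, Eno1, Ldha, Slc16a1 and Hif1a, where 1.70% of all tested genes did. In the other direction there was 1 gene, Mxi1, where 1.72% of all tested genes were. With the X-coded libraries left out, and only 2 LPS-ALI lungs remaining, the counts were 8 and 2, against 6.26% and 6.01% of all tested genes. Without TMAO replicate 5 the lower count was 9, against 4.28%. Under median-of-ratios, quantile and TPM scaling alike, Hif1a, Pgk1 and Eno1 stayed on the lower side without overlap and Mxi1 on the higher side. They also did so with the X-coded libraries or TMAO replicate 5 left out. Groups that do not overlap can hardly come to overlap when lungs are removed, so leaving lungs out is no check of these calls. The share of all tested genes that kept their side under each scaling is not given here.

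**Figure D2:**
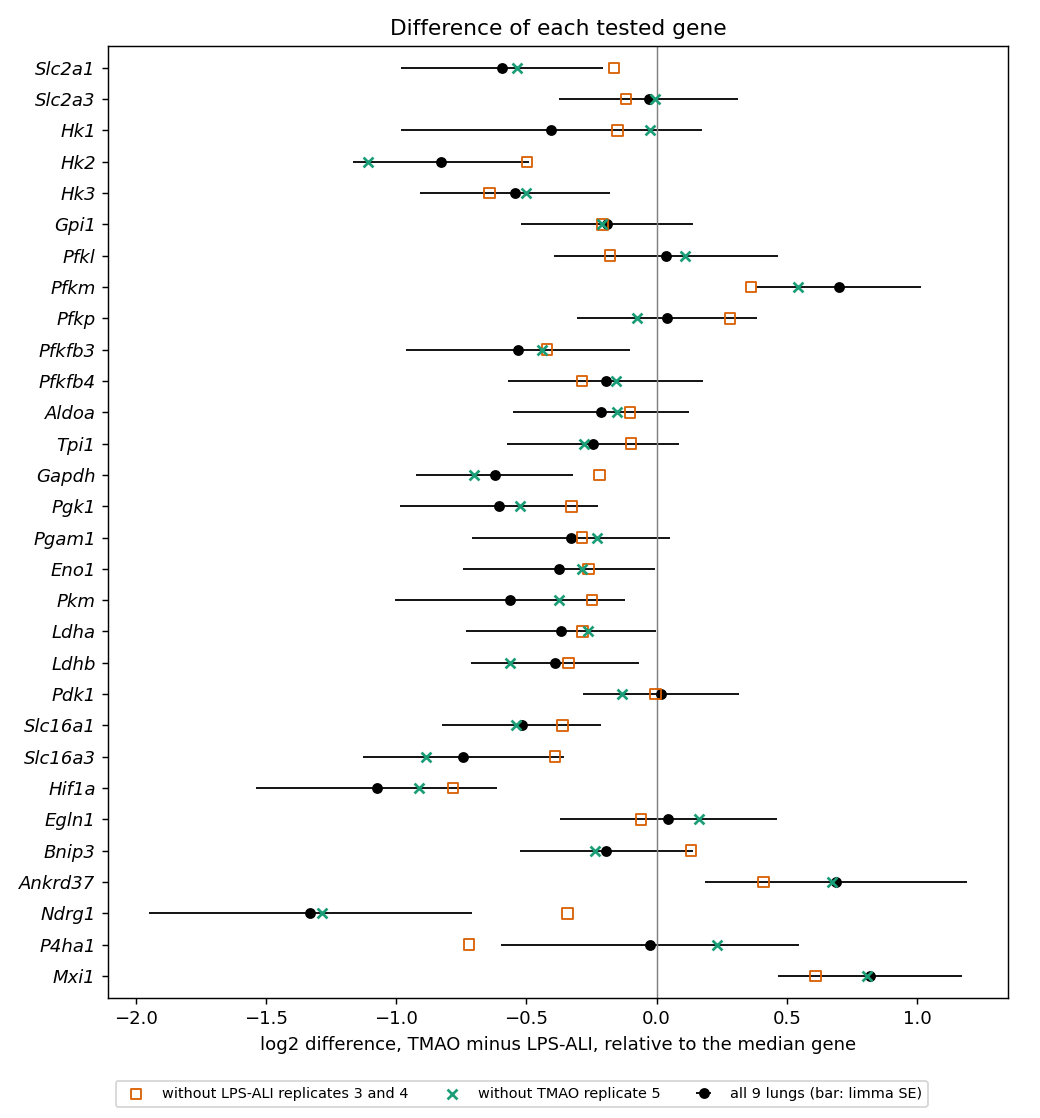
Log2 difference of each of the 30 tested genes, TMAO minus LPS-ALI, relative to the median tested gene, in pathway order from top to bottom. Black points use all 9 lungs, and their bars are the SE of the unshifted difference, not of the relative one plotted. Orange squares leave out LPS-ALI replicates 3 and 4, and green crosses leave out TMAO replicate 5. Gapdh moves from -0.62 to -0.22 and Ndrg1 from -1.33 to -0.34 at the orange squares, while Mxi1 stays between 0.61 and 0.82.

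Oxygen sensing and the other HIF targets were less uniform than the enzymes, with 4 of 7 tested genes below the median gene and 3 above it. Whether that share differs from the one of the enzymes was not tested. Hif1a had 24.8, 28.5, 23.9 and 59.2 FPKM with LPS alone and 12.4, 15.5, 19.0, 22.6 and 3.79 with TMAO. Every TMAO lung was below every LPS-ALI lung, in FPKM and relative to the median gene of the library. The means of Hif1a were 34.1 ± 16.9 (SD, n = 4) and 14.7 ± 7.18 (SD, n = 5), and the relative difference was -1.07 (unshifted -1.24 ± 0.46 SE, limma adjusted p = 0.998). It was -0.82 without LPS-ALI replicate 4, the high library, and -0.78 without both X-coded libraries. Hif1a lies on chromosome 12 from 73901375 to 73947530 of GRCm38, where Gm15283 is annotated antisense to it and Gm49321, a protein-coding gene, on its own strand. The sources used here do not give the strand setting of the counting, and a strand setting would not part Hif1a from Gm49321.

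Egln1, the main oxygen-sensing prolyl hydroxylase gene, had 12.1 to 19.9 FPKM with LPS alone and 4.91 to 26.0 with TMAO, with a relative difference of 0.05 that turned to -0.06 without the X-coded libraries. Egln3, a HIF-induced prolyl hydroxylase gene, had 0.74, 0.67, 0.78 and 0.04 FPKM with LPS alone and 0.12, 0.23, 0.12, 1.46 and 0 with TMAO, too low to be tested.

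Ndrg1, a stress- and hypoxia-responsive gene, had 7.76, 8.51, 10.7 and 94.9 FPKM with LPS alone and 4.69, 6.01, 7.93, 7.59 and 1.98 with TMAO. LPS-ALI replicate 4 stood alone, and the relative difference of -1.33 became -0.55 without it. Bnip3, for a mitophagy receptor, had 25.4 to 42.9 and 15.6 to 33.2 FPKM, with a relative difference of -0.19 that turned to 0.13 without the X-coded libraries. P4ha1, for a collagen prolyl hydroxylase, had 18.8, 14.3, 5.77 and 4.71 FPKM with LPS alone and 8.54, 16.97, 7.16, 17.19 and 1.43 with TMAO. Its X-coded libraries were the low ones of their group, and the relative difference went from -0.03 to -0.72 without them.

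Mxi1 and Ankrd37 lay on the other side of the median gene. Mxi1, for a Max-binding repressor that opposes Myc and is induced through HIF, had 13.9, 12.8, 9.86 and 8.26 FPKM with LPS alone and 17.5, 24.0, 20.6, 21.4 and 9.53 with TMAO. In FPKM only TMAO replicate 5 reached into the LPS-ALI range, and relative to the median gene of the library the groups did not overlap, at 0.23 to 0.91 and 1.14 to 1.66. The means of Mxi1 were 11.2 ± 2.59 (SD, n = 4) and 18.6 ± 5.58 (SD, n = 5), and the relative difference was 0.82 (unshifted 0.65 ± 0.35 SE, limma adjusted p = 0.998) and 0.61 without the X-coded libraries. Ankrd37, a direct HIF target of little known function, had 18.7, 15.5, 30.1 and 3.21 FPKM with LPS alone and 20.2, 20.7, 22.1, 28.7 and 10.7 with TMAO. Its relative difference of 0.69 was 0.06 without LPS-ALI replicate 4, the low library, but 0.41 without both X-coded libraries. LPS-ALI replicate 3 was the high library of its group. Ankrd37 overlaps the annotated genes Ufsp2 and Lrp2bp, so its reads cannot be cleanly assigned without the strand. The same limit holds for other genes here that overlap a gene on the opposite strand. Among them are Mxi1 (with Gm10197), Pfkm (Senp1), Hk3 (Unc5a), Gapdh (Iffo1) and Hk2 (Gm17034).

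**Figure D3:**
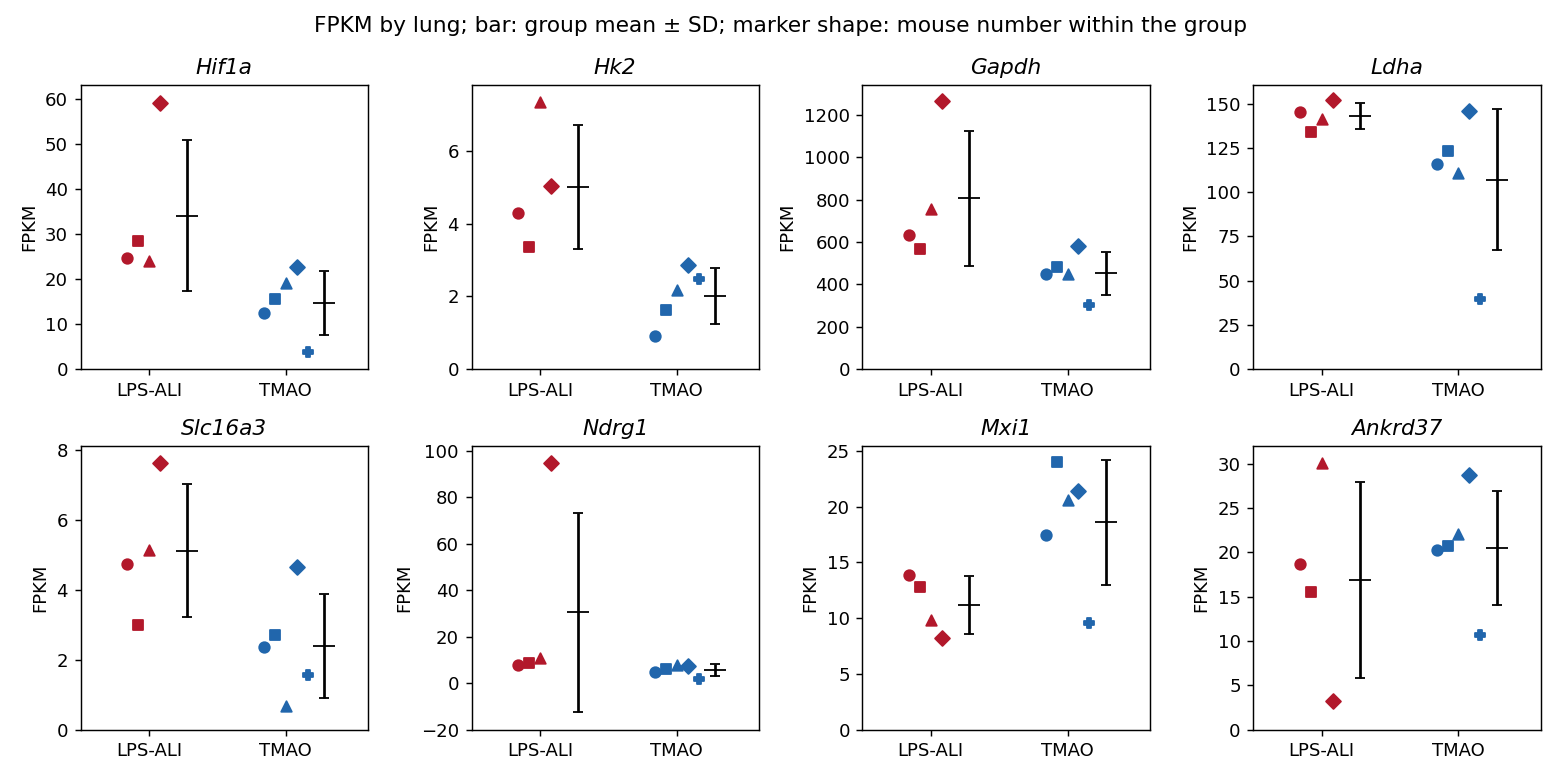
FPKM of 8 genes in each lung (red LPS-ALI, blue TMAO, marker shape for the mouse number) with the group mean and SD as a black bar. Hif1a and Hk2 do not overlap between groups, Ndrg1 is high in LPS-ALI replicate 4 alone at 94.9 FPKM, and Mxi1 lies above every LPS-ALI lung in 4 of 5 TMAO lungs.

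Isozymes of 1 step were also compared as shares of their summed FPKM within a library, which do not depend on how libraries are scaled. Of 10 shares 0 passed an exact two-sided permutation test after Benjamini-Hochberg adjustment over the 10, and 1 had an unadjusted p under 0.05. The smallest p that 4 against 5 lungs allow is 0.00794. Pfkm made up 9.50%, 11.2%, 6.81% and 3.00% of phosphofructokinase FPKM with LPS alone and 11.9%, 14.8%, 12.96%, 10.9% and 19.9% with TMAO. The means were 7.62 ± 3.56% (SD, n = 4) and 14.1 ± 3.57% (SD, n = 5; exact permutation p = 0.0238, adjusted p = 0.238), and the groups overlapped only between 10.9% and 11.2%. Without the X-coded libraries the difference of 6.47 percentage points was 3.76.

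Hk2 made up 20.5%, 20.7%, 34.2% and 18.5% of hexokinase FPKM with LPS alone and 6.71%, 10.7%, 15.03%, 10.9% and 70.2% with TMAO. In 4 TMAO lungs the Hk2 share was below that of every LPS-ALI lung, and in TMAO replicate 5 it was the highest of all, where Hk1 was at 0.72 FPKM. The mean difference was -0.76 percentage points (exact permutation p = 1, adjusted p = 1), and -12.6 without TMAO replicate 5. Ldhb made up 12.8% to 16.1% of lactate dehydrogenase FPKM with LPS alone and 8.81% to 25.5% with TMAO, where replicate 5 was again the high value. The 8 shares other than those of Pfkm and Hk2 had adjusted p = 0.603 or adjusted p = 1 by the exact permutation test. Slc16a3 was the larger of the pair of lactate transporters in 8 of the 9 lungs, at 59.9% to 74.1% with LPS alone and 37.3% to 85.6% with TMAO. Egln3 was at most 6.05% of the Egln1 and Egln3 sum.

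**Figure D4:**
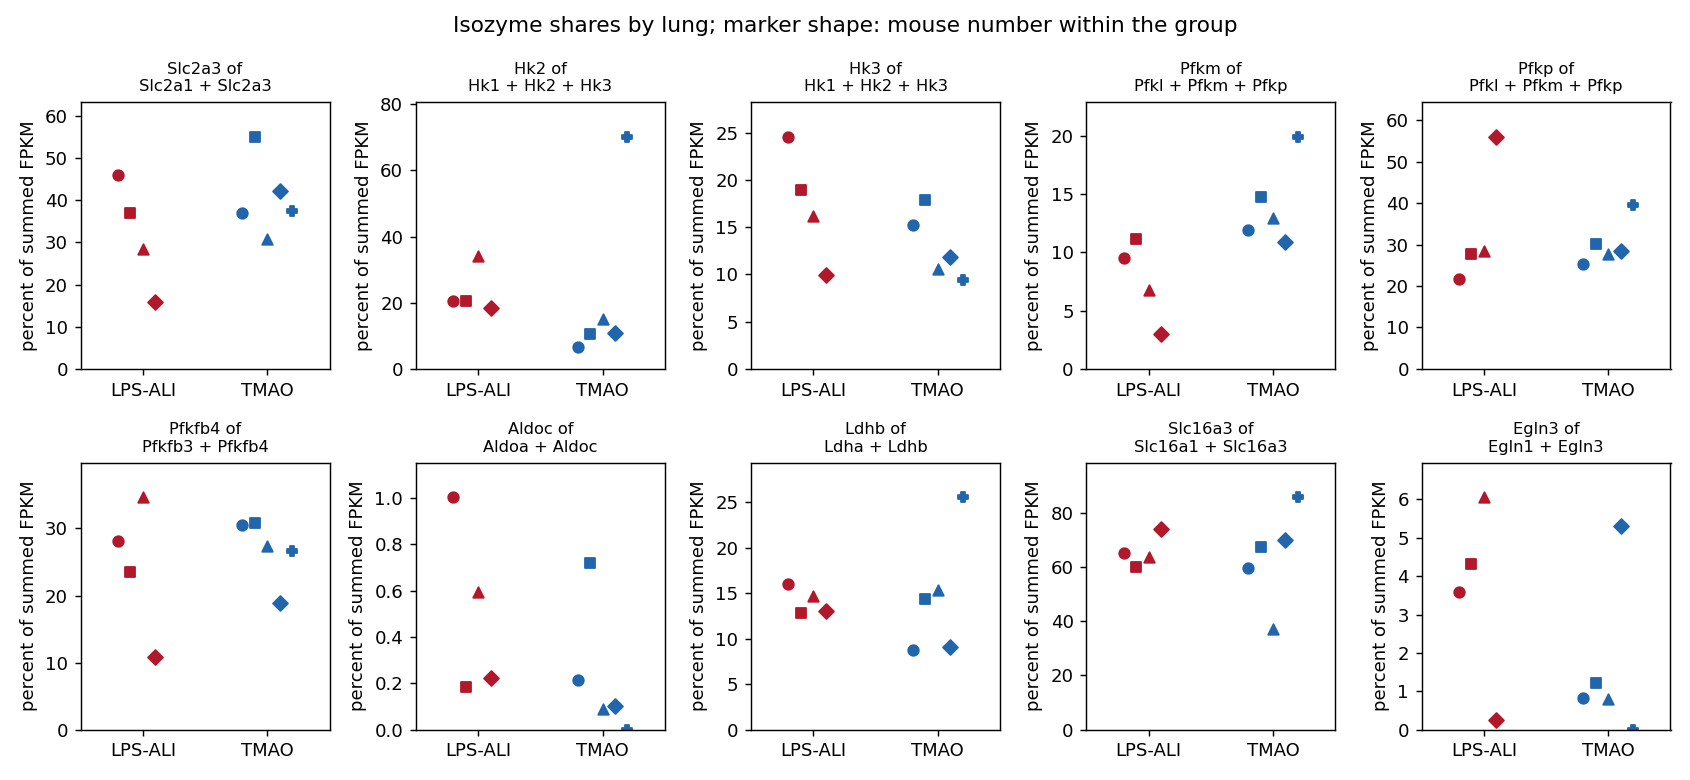
Share of each isozyme in the summed FPKM of its step, in percent, 1 point per lung (red LPS-ALI, blue TMAO, marker shape for the mouse number). The Pfkm share is 3.00% to 11.2% with LPS alone and 10.9% to 19.9% with TMAO, and the Hk2 share of TMAO replicate 5 stands alone at 70.2%.

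Neighbouring genes of the pathway were read from further lists, in each of which 0 genes passed an adjusted p of 0.05 by limma. Of the remaining glycolysis and gluconeogenesis genes 9 of 20 were tested, with 6 below the median gene and a median relative difference of -0.12 that turned to 0.07 without the X-coded libraries. Pgm2, of the phosphoglucomutase family, had the smallest unadjusted p there. It had 18.9 ± 8.04 FPKM with LPS alone and 10.6 ± 4.66 with TMAO (relative difference -0.63, or -0.15 without the X-coded libraries). Pgm1 had 5.42 ± 2.32 and 3.32 ± 1.40 FPKM, Pfkfb2 1.83 ± 0.88 and 1.32 ± 0.80, and Eno3, the muscle enolase, 3.18 ± 2.90 and 2.00 ± 0.54. Genes that bring pyruvate into mitochondria had 9 below the median gene among 13 tested, and a median of -0.18, or -0.02 without the X-coded libraries. Mpc1, of the mitochondrial pyruvate carrier, had 59.5 to 71.9 FPKM in LPS-ALI replicates 1 to 3, 178 in replicate 4, and 46.2 to 66.9 in TMAO lungs. Pcx, for pyruvate carboxylase, likewise had 8.09 FPKM in LPS-ALI replicate 4 and 0.09 to 1.66 elsewhere. Dld, of the pyruvate dehydrogenase complex, had 22.1 ± 7.94 and 15.5 ± 4.79 FPKM, and Pdhx, of the same complex, 4.88 ± 1.38 and 3.60 ± 1.92.

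The pentose phosphate pathway, which branches from glucose 6-phosphate and supplies NADPH to the phagocyte oxidase, had 6 of 8 members below the median gene and a median of -0.11. Tkt, for transketolase, had 42.9 ± 10.7 and 28.4 ± 11.7 FPKM (relative difference -0.50, and -0.48 without the X-coded libraries). Taldo1 had 134 ± 28.5 and 101 ± 28.5 FPKM, Pgd 34.9 ± 15.3 and 23.9 ± 8.16, and G6pdx, the entry enzyme, 22.8 ± 2.64 and 18.5 ± 6.45.

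Among other oxygen sensing genes 12 of 14 were tested, 8 of them below the median gene, with a median of -0.03 that turned to 0.09 without the X-coded libraries. Epas1, which encodes the other main HIF alpha subunit, had 501, 489, 297 and 279 FPKM with LPS alone and 717, 659, 573, 1147 and 187 with TMAO. In 4 of 5 TMAO lungs Epas1 was above every LPS-ALI lung, with a relative difference of 0.75 (unshifted 0.58 ± 0.43 SE, limma adjusted p = 0.998), or 0.41 without the X-coded libraries, so that Epas1 and Hif1a lay on opposite sides of the median gene. Endothelial markers, of the cells in which Epas1 is abundant, summed to 426 to 881 FPKM with LPS alone and 274 to 1435 with TMAO, and 9 of 10 lay above the median gene. Their median relative difference was 0.54, and -0.05 without the X-coded libraries, and their part in the values of Epas1 was not tested. Rbx1, Eloc and Vhl, of the ubiquitin ligase that removes hydroxylated HIF, had 87.3 ± 11.99 and 71.7 ± 9.19, 137 ± 43.3 and 106 ± 18.8, and 6.81 ± 1.46 and 5.83 ± 2.35 FPKM.

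Of 35 further HIF targets 27 were tested, 15 below and 12 above the median gene, with a median of -0.02, or -0.16 without the X-coded libraries. At an unadjusted limma p under 0.05, 4 were lower and 0 higher in TMAO lungs, against 2.93% and 0.423% of all tested genes. Ddit4, an inhibitor of mTORC1 induced by stress and glucocorticoids as well as hypoxia, had 9.25, 9.39, 12.2 and 31.2 FPKM with LPS alone and 4.21, 3.75, 6.55, 8.70 and 0.36 with TMAO, a relative difference of -1.44 (-0.90 without the X-coded libraries) in which the groups did not overlap. Bhlhe40, a transcriptional repressor gene, had 13.2 ± 5.14 and 6.35 ± 2.70 FPKM. Hmox1, the haem-degrading oxygenase gene, had 82.5 FPKM in LPS-ALI replicate 4, where the summed red blood cell markers were also highest, 23.8 to 35.5 in the other LPS-ALI lungs and 6.48 to 27.9 in TMAO lungs. The limma adjusted p was 0.998 for each of Ddit4, Bhlhe40 and Hmox1. For Hmox1 the relative difference was -0.88, and -0.33 without the X-coded libraries.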

How the data were processed

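RNA sequencing covered the lungs of 9 mice, 4 LPS-ALI and 5 TMAO, grouped by their titles, which number separate mice. The labels name lung as the tissue, while their extraction text names platelets. Ribosomal RNA was depleted, per the labels' protocols. The submitters' processing notes name fastp, HISAT2, SAMtools, featureCounts and build mm10. Versions, annotation, strand setting and gene lengths are unstated there.

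The authors deposited FPKM for each lung, to 2 decimals and without pooling. Since FPKM is no count, limma 3.58.1 (R 4.3.3) was fitted to log2(FPKM + 1), with the prior variance following the mean level, both directions tested, and Benjamini-Hochberg adjustment at 0.05. Genes needed at least 1 FPKM in at least 4 libraries. Isozyme shares were compared by exact permutation. The limma step was tested on simulated data with independent noise and changes larger than those of the members. These data held no outlying library and no shift of a whole library, so they do not bear on such effects here. The 2 most alike libraries had equal values for 63 of 11817 tested genes. Absolute depth is unknown. Steps between low values put relative depth at 0.38 to 1, so low genes carry the larger error.

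The members and lists were chosen with earlier results of these data known. All 32 members are named, and up to 4 genes of each further pathway list, by the smallest unadjusted p, except 1 gene that is not reported here. Coordinates are those of GENCODE M21 (GRCm38, which mm10 also is). Tables and figures used Python 3.11.15, pandas 2.3.3 and matplotlib 3.10.9. The alternatives changed the pseudocount (0.1 or 0.5), the filter (none, or a mean of at least 5 FPKM), the scaling, the variance model, the design and the libraries used.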

Additional observations from a re-analysis of the deposited data

Results flagged for a closer look

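Each of the 32 genes and 10 shares was checked in each group for a library whose gap to its nearest neighbour takes up most of the group's range, above the 95% critical value of Dixon's test (0.829 for 4 lungs and 0.71 for 5). Of 84 group values 11 passed, and chance flags about 1 in 20. LPS-ALI replicate 4 accounted for 5 of them. It had 102 FPKM of Pgk1, 297 of Pkm, 59.2 of Hif1a and 94.9 of Ndrg1, all high, and 0.04 of Egln3, which was low. TMAO replicate 5 had 1.47 FPKM of Pfkfb4, low in its group, and the high Hk2 share of 70.2%. LPS-ALI replicate 3 had the high Hk2 share of its group, 34.2%. TMAO replicate 4 had 1.46 FPKM of Egln3 and an Egln3 share of 5.32%, and TMAO replicate 2 had 1.96 FPKM of Aldoc, each high in its group.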

How the results depend on the processing

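The 30 member differences kept their side of the median gene for 22 genes under each alternative that could be run (23, or 22 for the 9 genes that miss a mean of 5 FPKM), and none passed the adjusted threshold. In 35 of 681 alternative values a gene changed sides. Genes past the threshold numbered 51 with library weights, 0 to 3 with 1 lung left out, and 0 otherwise. Of the members 15 of 21 lay below the median gene with a mean of at least 5 FPKM, and 21 to 25 with 1 lung left out. Members with no overlap in FPKM are given beside the share of all tested genes in the same setting. They numbered 2 (1.48%), but 1 (1.57%) at a mean of at least 5 FPKM, 0 (0.487%) after rescaling to TPM, 7 with median-of-ratios (3.35%) or quantile scaling (3.45%) and 1 (0.874%) in TPM without mitochondrial, haemoglobin and small RNA genes. With 1 lung left out they numbered 2 to 9, against 1.68% to 4.68% of all genes, with 7 (3.15%) when LPS-ALI replicate 2 and 9 (4.35%) when TMAO replicate 4 was missing. Relative to the library's median gene the count was 8 (3.42%), and 8 to 11 with 1 lung left out, against 4.0% to 8.37%. Fewer lungs overlap less often by construction, so these counts are not comparable with each other.

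Sides changed as follows. Slc2a3 was 0.0101 in TPM. Hk1 was 0.0806 and Bnip3 0.0483 with library weights, and Pdk1 -0.19. With no filter Pfkl was -0.0815, Pfkp -0.0771, Pdk1 -0.10 and Egln1 -0.0737. With the mouse number as a replicate block Pfkp was -0.0750, Pdk1 -0.13 and P4ha1 0.23. P4ha1 was 0.00555 at a mean of at least 5 FPKM. Without the X-coded libraries Pfkl was -0.18, Pdk1 -0.0043, Egln1 -0.0599 and Bnip3 0.13, and the shares changed by -0.997 (Slc2a3), 2.12 (Hk2), 5.47 (Pfkp) and 1.43 percentage points (Slc16a3). Without LPS-ALI replicate 4 and TMAO replicate 5 Hk1 was 0.13, Pfkl -0.17 and Pdk1 -0.25, and the shares changed by -14.3 (Hk2), 1.92 (Pfkp), -1.84 (Pfkfb4) and -2.61 (Ldhb). With medians in place of means the Pfkp and Slc16a3 shares changed by 0.47 and 2.81. The Ldhb share was -2.23 with the replicate block and -0.0221 as a log2 ratio. The causes were not tested.

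Without 1 lung 12 genes neither turned nor moved by over 1.5 times. Beside values already given, Aldoa was -0.14 and Bnip3 -0.0578 without LPS-ALI replicate 3, Bnip3 -0.31 without LPS-ALI replicate 2, Ankrd37 1.12 without LPS-ALI replicate 3, Pfkm 0.42, Pkm -0.35 and Hk1 -0.24 without LPS-ALI replicate 4, and Slc16a3 -0.49 without TMAO replicate 3. The ranges were -0.16 to 0.0722 for Slc2a3, -0.579 to -0.0258 for Hk1, -0.24 to 0.25 for Pfkl, -0.0826 to 0.16 for Pfkp, -0.13 to 0.11 for Pdk1, -0.0308 to 0.16 for Egln1 and -0.35 to 0.25 for P4ha1. For shares they were -12.6 to 3.24 (Hk2), -7.17 to 4.27 (Pfkp), -1.91 to 6.04 (Pfkfb4), -2.23 to 1.95 (Ldhb) and -7.25 to 4.83 (Slc16a3). Mice with the same number did not deviate together (correlations of 0.06, -0.01, -0.03 and -0.13), so the block pairs numbers only. It left 0 genes past the threshold.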
